A study of Mus musculus with 24 samples.

Results

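Alveolar type 2 (AT2) cells sorted by flow cytometry from control mice were compared with whole lungs of control mice, both taken 6 days after tamoxifen. The comparison used 6 of the 24 libraries of the series, 3 of sorted AT2 cells and 3 of whole lung. All 6 had the genotype Sftpc-CreER/+; R26-tdT/+, which pairs a tamoxifen-inducible Cre driven from the surfactant protein C gene with a tdTomato reporter, and tamoxifen was given to all of them. None carried the let-7 deletion (let-7afd) that the series studies in its other animals. Each AT2 library held cells pooled from 3 mice, whereas each lung library came from 1 mouse. The sources used here give no ages or sexes of the mice, no gates of the sort and no word on whether the reporter was used for it.

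AT2 cells are the cuboidal epithelial cells of the alveolus. They make surfactant, a mix of phospholipids and surfactant proteins that lowers the surface tension of the airspace, store it in lysosome-related organelles called lamellar bodies and secrete it, and they give rise to the flat AT1 cells of the gas exchange surface. Whole lung holds AT2 cells together with AT1 cells, airway epithelium, endothelium, mesenchyme and blood cells, so a transcript made by AT2 cells is present on both sides of the comparison.

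RNA was measured as TPM, a transcript level scaled for transcript length and to the same sum in every library, from nonstranded poly(A) libraries. Between 11815 and 12120 genes reached 1 TPM in each AT2 library and between 14051 and 14157 in each lung. On the log2(TPM + 1) scale the 3 AT2 pools correlated with each other at Pearson's r of 0.991 to 0.994 across genes and the 3 lungs at 0.985 to 0.991, while r between the kinds lay between 0.713 and 0.755. The 10 genes with the highest mean level held 27.7% of all TPM in AT2 cells and 24.9% in lung. TPM keep no read numbers, so the depth is unknown. The kind of sample, the handling that a sort needs and the table in which the values were deposited change together and cannot be told apart. In such bulk libraries fewer cells of a type and less RNA per cell cannot be told apart either. The p-values measure the spread between 3 pools and between 3 mice.

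Of 14123 genes tested with limma, 3444 (24.4%) were higher in AT2 cells and 6997 (49.5%) were lower, at an adjusted p under 0.05. Requiring in addition a difference of at least 4-fold, which is 2 on the log2(TPM + 1) scale, left 315 genes higher (2.23%) and 2168 lower (15.4%). Under quantile normalization 660 and 1297 were left. The counts of each gene list below are to be read beside these shares of all genes. For 10990 genes (77.8%) the 3 AT2 values did not overlap the 3 lung values. The median difference over all genes was -0.26. It was -0.15 under median-ratio scaling and 0.22 under quantile normalization, and the share of called genes that were higher went from 33% to 39.7% and 61.6%, so small differences are read below against these medians. There were 1900 genes with at least 1 TPM in every lung and under 1 TPM in every AT2 pool, and 193 with the reverse pattern.

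**Figure D1:**
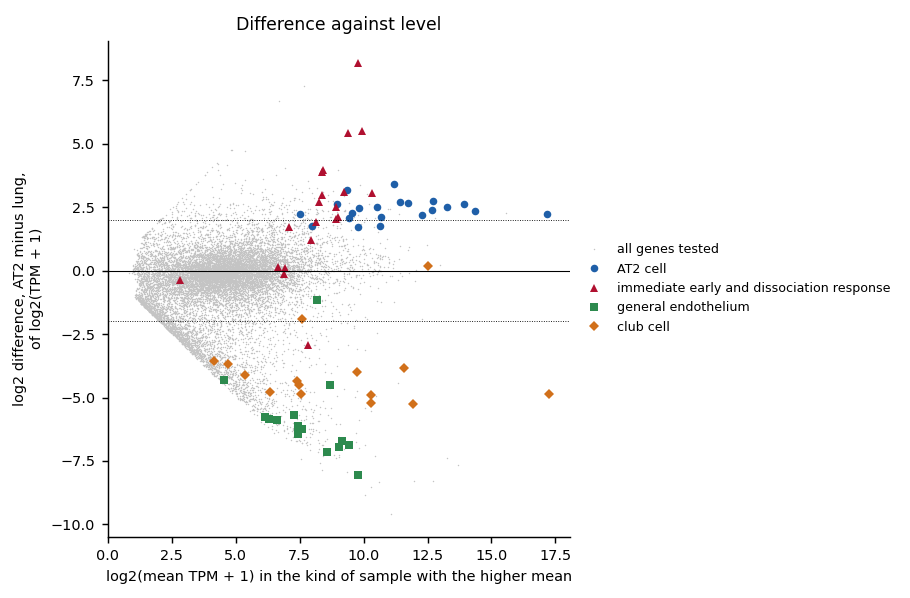
Difference between kinds of sample (vertical axis, log2 difference of log2(TPM + 1), AT2 minus lung) against level (horizontal axis, log2(mean TPM + 1) in the kind with the higher mean) for the 14123 genes tested, with 4 gene lists marked and dotted lines at a difference of 2. AT2 markers lie in a band from 1.71 to 3.42, endothelial markers reach -8.04, and Fosb stands at 8.17.

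The genes that define AT2 cells were higher in the sorted cells than in lung. Sftpc, which encodes surfactant protein C, stood at 155065, 143693 and 141750 TPM in the 3 AT2 pools and at 33719, 28797 and 31737 TPM in the 3 lungs. It was the gene with the highest level in AT2 cells, with a mean of 146836 ± 7192 TPM (SD, n = 3), and its difference was 2.23 ± 0.16 (SE) on the log2 scale with an adjusted p of 3.44e-06. Lamp3, a membrane protein of lamellar bodies, stood at 2874, 2612 and 2640 TPM in AT2 cells and at 420, 395 and 423 TPM in lung. Its difference was 2.71 ± 0.07 with an adjusted p of 3.64e-08. Abca3, the transporter that loads phospholipid into lamellar bodies, stood at 927, 1023 and 784 TPM against 177, 139 and 174 TPM, a difference of 2.47 ± 0.13 with an adjusted p of 4.83e-07. Exons of Abca3 overlap those of D330041H03Rik on the other strand, so in nonstranded libraries reads from the overlap cannot be told apart. For all 3 genes the AT2 values lay above every lung value. In the annotation of the GRCm38 genome (GENCODE M21) Sftpc lies at chr14:70520949-70524081 on the minus strand.

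All 21 tested genes of a list of 22 AT2 markers were higher in AT2 cells and 18 of them at least 4-fold, with a median difference of 2.38 where the median of all genes was -0.26. The remaining marker, Rasgrf1, reached 1 TPM in under 3 libraries and was not tested. Its levels were 1.4, 1.5 and 0.813 TPM in AT2 cells and 0.772, 0.536 and 0.643 TPM in lung. The other surfactant proteins followed Sftpc. Sftpa1 averaged 15567 TPM in AT2 cells and 2540 TPM in lung, Sftpb averaged 20965 and 4151 TPM, and Sftpd averaged 6517 and 1250 TPM, each with no overlap between the groups. The ratio of the AT2 mean to the lung mean ran from 3.28 for Muc1, a membrane mucin shared with airway epithelium, to 10.7 for Hc, which encodes complement C5, and it lay between 4 and 6 for 11 of the 21 markers. Egfl6, a secreted protein with EGF repeats, had the next largest difference at 3.19. The smallest belonged to Muc1 (1.71), Lyz1 (1.76) and the transcription factor Nkx2-1 (1.77), which other lung epithelia also express. Summed over the list, AT2 markers held 22.9% of all TPM in AT2 cells and 4.64% in lung. The sum in AT2 cells was 494% of that in lung, and leaving out any 1 library moved it between 475% and 511%. Against control lungs taken 6 months after tamoxifen it was 851%, as the list summed to 26933 TPM on average in those lungs and to 46438 TPM in the lungs used here. Those lungs differ in more than the time after tamoxifen, as given at the end.

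**Figure D2:**
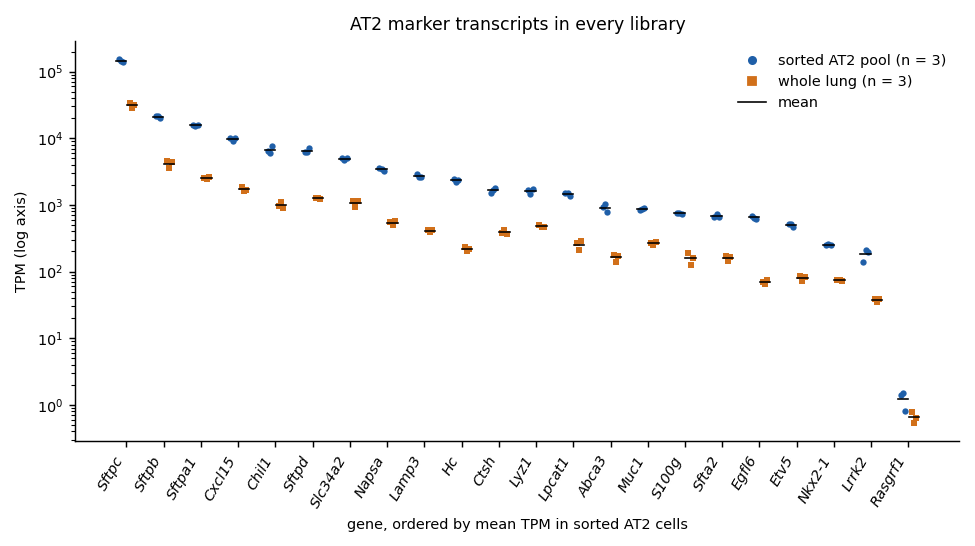
TPM (log axis) of the 22 AT2 markers in each sorted AT2 pool (circles, n = 3) and each whole lung (squares, n = 3), with bars at the means. The 3 pools lie above the 3 lungs for every marker, from Sftpc at 146836 against 31418 TPM to Rasgrf1 at 1.24 against 0.651 TPM.

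The promoters of AT2 markers were searched for letters bound by the factors known to act on surfactant genes. The windows, from RefSeq on GRCm38.p6, run from 250 bases before to 50 bases after the first start listed for a gene. They were found for 18 of the 22 markers, and Sftpc and Sftpd were among those without one. The start listed first need not be the outermost. The Slc34a2 window lies inside the gene, which spans chr5:53038081-53071664 in GENCODE M21. CAAGTG, a core of NKX2-1 sites, was in 2 of the 18 (11.1%), compared with 13.5% of the first windows of all 27025 genes in the table. TGTTTAC, a forkhead core, was in 3 (16.7%) against 3.55%, and TTNNGCAA, a form of the C/EBP site, was in 3 (16.7%) against 10.8%. The letters bound by factors of the GATA family, AGATAA, were in 0 of the 18 windows and in 11.4% of all. Both strands were searched, and no matches overlapped in the windows of the markers. Of the 242 genes higher at least 4-fold that had a window, 15.7%, 2.89%, 14.5% and 9.5% held the same motifs in that order. The shares were 12.1%, 3.49%, 10.5% and 9.84% for 1575 genes lower at least 4-fold. A match describes letters only and shows no binding. The 3 windows below are examples of those that hold 1 or more of these motifs, and Lyz1 and Etv5 are among the others that do. The windows of Sftpb and Abca3 hold none of them. Motifs are in capitals, written as the reverse complement where the match is on the other strand. Sftpa1 (chr14:41131538-41131837, plus strand) holds CAAGTG at 2 places, Lamp3 (chr16:19706316-19706615, minus strand) holds the forkhead core and Slc34a2 (chr5:53049103-53049402, plus strand), the phosphate transporter of AT2 cells, holds the C/EBP form.
Sftpa1: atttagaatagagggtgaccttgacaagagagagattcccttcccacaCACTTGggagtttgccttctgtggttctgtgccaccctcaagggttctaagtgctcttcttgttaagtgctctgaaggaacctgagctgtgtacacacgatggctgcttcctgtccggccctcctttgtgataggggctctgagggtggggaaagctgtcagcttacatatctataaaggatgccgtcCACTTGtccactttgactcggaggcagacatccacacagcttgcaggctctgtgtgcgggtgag
Lamp3: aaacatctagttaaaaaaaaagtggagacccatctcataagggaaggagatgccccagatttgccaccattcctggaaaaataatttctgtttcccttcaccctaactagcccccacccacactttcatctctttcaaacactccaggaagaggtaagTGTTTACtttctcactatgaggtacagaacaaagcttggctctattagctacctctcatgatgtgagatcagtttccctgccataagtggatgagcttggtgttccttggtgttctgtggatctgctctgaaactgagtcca
Slc34a2: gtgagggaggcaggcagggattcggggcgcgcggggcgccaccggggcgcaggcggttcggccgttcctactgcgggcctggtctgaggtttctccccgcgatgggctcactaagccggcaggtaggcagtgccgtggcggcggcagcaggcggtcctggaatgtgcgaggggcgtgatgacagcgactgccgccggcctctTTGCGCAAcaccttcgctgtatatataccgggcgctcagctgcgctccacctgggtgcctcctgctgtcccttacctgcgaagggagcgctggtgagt

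Lipid synthesis genes were mostly higher in AT2 cells. Of 18 tested genes for making fatty acids and phosphatidylcholine, the main phospholipid of surfactant, 13 were higher and 4 lower, with 6 higher at least 4-fold and a median difference of 1.57. Fasn, the fatty acid synthase, stood at 826, 916 and 841 TPM in AT2 cells and at 143, 126 and 185 TPM in lung, a difference of 2.51 ± 0.13 with an adjusted p of 5.58e-07. Scd1, the desaturase of stearate, averaged 7000 ± 257 TPM against 1718 ± 445 TPM (SD, n = 3 each), and Fabp5, a fatty acid carrier, 1376 ± 212 against 258 ± 28.3 TPM. Acsl4, which activates long polyunsaturated fatty acids, had the largest difference of the list at 2.55, followed by Fasn, Elovl1 (2.44, whose exons overlap those of Cdc20 on the other strand), Fabp5 (2.41) and Chka (2.24), a choline kinase. Elovl6, an elongase of medium-length chains, went the other way, at 0.283, 0.312 and 0.29 TPM in AT2 cells against 6.54, 4.65 and 6.86 TPM in lung. The other lower members were Pnpla3 (-1.11), Chpt1 (-0.58) and Lpin1 (-0.33, but 0.22 under quantile normalization and an adjusted p of 0.0513 without lung 3), and Mlxipl did not pass the test (0.28, adjusted p = 0.233).

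All 19 genes of sterol synthesis and uptake were higher in AT2 cells, 4 of them at least 4-fold, with a median difference of 1.68. Insig1, an endoplasmic reticulum protein that holds back SREBP, stood at 244, 304 and 327 TPM in AT2 cells and at 55.8, 53.9 and 64.9 TPM in lung. Its difference of 2.3 was the largest of the list, and Fdps (2.24) and Lss (2.07), which encode an isoprenoid synthase and lanosterol synthase, were also past 4-fold. Stard4, a sterol carrier, had the smallest difference at 0.34, and it was the member whose AT2 and lung values overlapped (28.9 to 38 TPM against 24.3 to 29 TPM). The call for Stard4 was lost without pool 2, pool 3, lung 1 or lung 3 (limma adjusted p of 0.0728 to 0.0923). Srebf1 and Srebf2, the transcription factors that drive both sets of enzymes, averaged 164 and 152 TPM in AT2 cells and 56.1 and 72.8 TPM in lung.

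Lysosomal genes did not move as a block. Of 23 genes of lysosomes and lamellar body trafficking, 13 were higher and 6 lower, with a median of 0.42, where 24.4% of all genes were higher and 49.5% lower. Npc2, a carrier of cholesterol in the lysosome lumen, stood at 2656, 2621 and 2817 TPM in AT2 cells and at 569, 570 and 568 TPM in lung, a difference of 2.24. Cd63, a tetraspanin of lysosome-related organelles, averaged 1548 ± 149 against 361 ± 60.9 TPM, and Ctsc, a cathepsin, had a difference of 1.97. Of the 6 that were lower, Psap, the precursor of the saposins, stood at 133, 119 and 114 TPM in AT2 cells and at 979, 1241 and 984 TPM in lung, a difference of -3.11 with an adjusted p of 7.46e-08. Ctsd (-1.57) and Lamp1 (-0.73) were lower too. The 4 members that missed the threshold had differences from -0.2 for Ctsb to 0.14 for Hps4.

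All 14 lung epithelial factors were higher in AT2 cells, with a median difference of 1.7 and 3 at least 4-fold. Etv5, an ETS factor needed for AT2 identity in mice, stood at 516, 526 and 464 TPM against 85.8, 72.4 and 81.5 TPM. Cebpa (2.3) and Elf3 (2.32) were the others past 4-fold, and Nkx2-1, the master regulator of lung epithelium, averaged 253 ± 3.87 TPM against 73.5 ± 1.42 TPM (SD, n = 3 each). Cebpd had the smallest difference at 0.64 (adjusted p = 0.0255), and its values overlapped, with 52.6 to 80.4 TPM in AT2 cells and 35.8 to 59.4 TPM in lung. Its call was lost without the same 4 libraries (limma adjusted p of 0.0809 to 0.0975 for Cebpd). All 17 tested factors of mesenchyme, endothelium and blood were lower, 16 at least 4-fold, with a median of -4.41. Foxf1, a mesenchymal and endothelial forkhead factor, stood at 3.67, 0.894 and 0.878 TPM in AT2 cells and at 223, 187 and 180 TPM in lung. Nr2f2 was the member with the smallest gap, at 12.1 against 36.9 TPM.

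Of 19 genes of epithelial junctions and keratins, 15 were higher and 3 lower, with a median of 1.32. Cdh1, E-cadherin, stood at 393, 422 and 419 TPM in AT2 cells and at 177, 175 and 179 TPM in lung. Krt8 and Krt18, keratins of simple epithelia, averaged 545 and 398 TPM in AT2 cells against 167 and 97.3 TPM in lung, and Krt18 at 2.01 was the member past 4-fold. Keratins that other lung epithelia share were lower, Krt19 by -0.92 and Krt7 by -0.78, as was Ocln (-0.57), and Cldn4 was near 5 TPM in both kinds (5.19 and 5.16 TPM, adjusted p = 0.874).

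Ion and water transporters differed in both directions. Of 14 tested, 8 were higher and 5 lower, with 3 and 4 past 4-fold and a median of 0.71. The shares over all genes were 24.4% and 49.5%, and 2.23% and 15.4% past 4-fold. The largest differences among those higher belonged to Slc26a9, an anion transporter (108 against 19.4 TPM, 2.42), Atp1b1, a sodium pump subunit (1391 against 327 TPM, 2.08), and Cftr, the chloride channel (29.8 against 6.35 TPM, 2.06). Aqp1, the water channel of endothelium, was at the other end with 15, 6.04 and 7.44 TPM in AT2 cells against 805, 801 and 856 TPM in lung. The 3 subunits of the epithelial sodium channel differed from each other. Scnn1a averaged 186 TPM in both kinds (-0.03, adjusted p = 0.886), while Scnn1b (25.3 against 81.6 TPM) and Scnn1g (16.5 against 96.5 TPM) were lower.

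Among 27 tested genes for secreted signals, 10 were higher and 15 lower, with a median of -1.38. Over all genes tested 24.4% were higher and 49.5% lower, with a median of -0.26. At least 4-fold, 4 members were higher and 11 lower, where 2.23% and 15.4% of all genes were. No list was tested as a set, so the members are given for their own values. Cxcl15, a chemokine of lung epithelium, was the most abundant, at 10117, 8954 and 10064 TPM in AT2 cells and 1841, 1631 and 1649 TPM in lung. Areg, a ligand of the EGF receptor, had the largest difference of the list, with 75.3, 133 and 148 TPM against 5.4, 9.64 and 4.11 TPM (4.03 ± 0.31, adjusted p = 6.27e-06). Il33, an alarmin, stood at 472, 614 and 980 TPM against 107, 117 and 89.9 TPM, and Csf2, the growth factor that alveolar macrophages depend on, at 34.5, 24.1 and 26.2 TPM against 3.05, 2.99 and 5.38 TPM. Both were past 4-fold, at 2.65 and 2.63. The signals that were lower at least 4-fold are known from mesenchyme and other cells, such as Hgf (-4.1), Wnt2 (-3.67), Fgf7 (-3.62), Fgf10 (-3.27) and Igf1 (-3.25).

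Of 22 receptors for growth factors and cytokines, 5 were higher and 15 lower, with a median of -1.12, where 24.4% of all genes were higher and 49.5% lower. Fgfr2, the epithelial receptor for FGF7 and FGF10, stood at 318, 327 and 251 TPM in AT2 cells and at 67.4, 52.2 and 63.7 TPM in lung, and at 2.27 it was the receptor past 4-fold among those higher. The other 4 were Met (1.82), the HGF receptor, Fzd5 (1.58) and Lrp5 (0.64), receptors for WNT ligands, and Erbb3 (1.23). Egfr, the receptor for amphiregulin, was low in both kinds, at 5.85 TPM in AT2 cells and 9.16 TPM in lung (-0.57, adjusted p = 0.00836, but 0.27 under quantile normalization), and both subunits of the CSF2 receptor were lower (Csf2ra -2.46, Csf2rb -3.91).

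Genes of host defence differed in both directions. Of 13 tested, 6 were higher and 6 lower, with 4 and 5 past 4-fold. Of all genes tested, 24.4% were higher and 49.5% lower, with 2.23% and 15.4% past 4-fold. Hc, Chil1, Lcn2, Lyz2, Lyz1 and Lbp were higher. Lyz2, a lysozyme also known from myeloid cells, stood at 49226, 45736 and 50568 TPM in AT2 cells and 10330, 9715 and 9926 TPM in lung, and was the gene with the next highest level after Sftpc in AT2 cells. The complement genes other than Hc were lower, among them C4b (-4.9), C2 (-4.32) and Cfb (-4.23), as was C3 by -0.46. The call for C3 was lost without pool 1, pool 2 or lung 2 (limma adjusted p of 0.0728 to 0.0994). Retnla, a secreted protein induced by type 2 cytokines, did not pass the test and varied among libraries of both kinds, with 608, 242 and 2059 TPM in AT2 cells and 487, 2102 and 440 TPM in lung. Genes of MHC class II, which present antigen, were also found at high levels in AT2 cells. Of 7 tested, 5 were higher and 0 lower, with a median of 0.52. Cd74, the invariant chain, averaged 5752 ± 301 TPM against 2886 ± 279 TPM, and H2-Aa 1690 ± 22.5 TPM against 1185 ± 116 TPM (SD, n = 3 each).

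**Figure D3:**
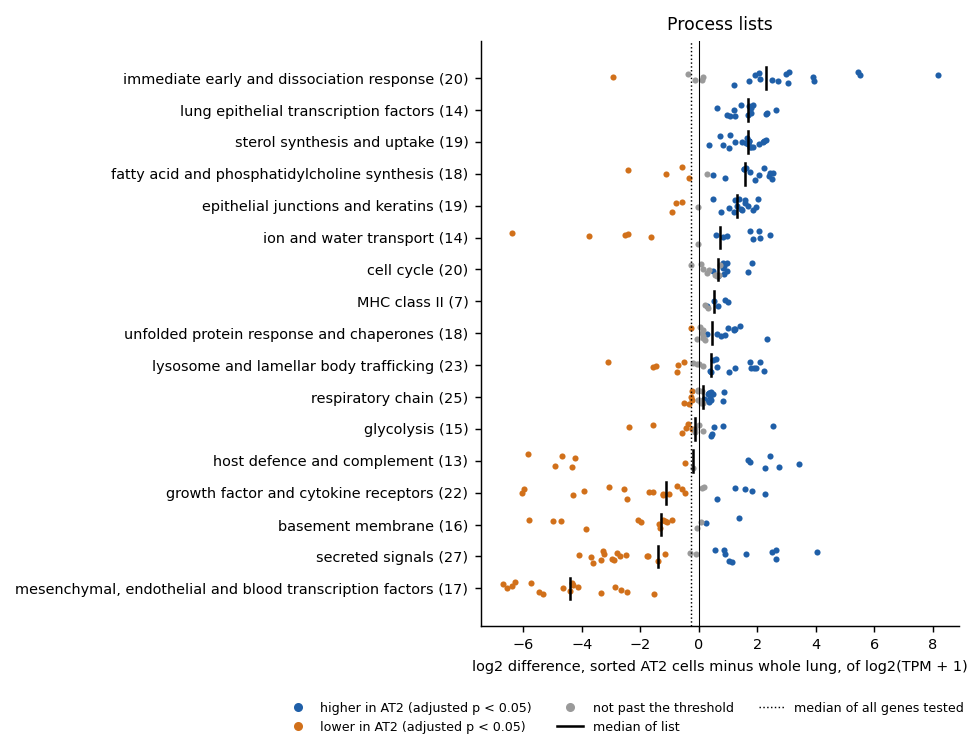
Log2 difference (AT2 minus lung, of log2(TPM + 1)) of each tested member of 17 process lists, with the number of members in brackets, black bars at list medians, colours for the direction of the call and a dotted line at the median of all genes tested (-0.26). List medians run from 2.31 for immediate early genes to -4.41 for non-epithelial transcription factors, and lists such as host defence, lysosome and ion transport hold members on both sides.

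Markers of other cell types describe what else the sorted pools held. Of 231 markers of 26 other cell types with a mean of at least 1 TPM in lung, 189 (81.8%) averaged under 10% of their lung level in AT2 cells. Of all 14093 listed genes with that lung level, 17% did. Because the floor of 1 TPM drops markers that are low in lung, the count was also made without it, an alternative chosen after seeing the data, and was 194 of 245 (79.2%). Vascular endothelium was at 3.79% of its lung level as a summed list of 15 genes and at 0.814% as the median over its members. Pecam1 stood at 9.48, 3.09 and 2.52 TPM in AT2 cells and at 543, 564 and 581 TPM in lung, and Cldn5 at 13.5, 3.71 and 1.92 TPM against 720, 654 and 694 TPM. All 15 genes of that list were lower and 14 at least 4-fold, with a median difference of -6.14. The summed lists of the aerocyte (1.22%), general capillary (0.895%) and lymphatic (1.49%) endothelium were also low, and without pool 1 the aerocyte and lymphatic lists were at 0.786% and 0.531%. Matrix and adventitial fibroblast markers were at 1.38%, with Col1a1 at 4.02, 0.825 and 0.78 TPM against 181, 199 and 195 TPM, and smooth muscle and pericyte markers at 0.865%, with Acta2 at 3.36, 1.03 and 2.7 TPM against 216, 234 and 278 TPM.

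Leukocyte transcripts were low as well. Ptprc, which encodes CD45, stood at 3.37, 0.999 and 2.24 TPM in AT2 cells and at 82.3, 87.5 and 80.7 TPM in lung. All 10 genes expressed across leukocytes were lower, 9 at least 4-fold, with a summed level of 10.2% and a median level of 1.9% of that in lung. The summed level of T and NK cell markers was 1.01%, of neutrophil markers 1.15%, of alveolar macrophage markers 3.98% and of dendritic cell markers 4.28% of lung. Without pool 1 the T and NK cell list was at 0.615% and the neutrophil list at 0.638%. Ms4a7, a macrophage gene, Ngp and Camp of neutrophil granules, and Klrb1c and Ncr1 of NK cells were listed at 0 in all 3 pools. The 6 haemoglobin and other erythroid transcripts of the list held 2.32% of all TPM in lung and were at 0.501% of that level in AT2 cells. Hbb-b1, a haemoglobin gene outside the list, averaged 9858 TPM in lung and 56.2 TPM in AT2 cells. The remaining lists of mesenchyme and blood summed to 24.5% of lung for alveolar fibroblasts, 4.16% for mesothelium and 9.06% for interstitial macrophages and monocytes. The sums were 25.2% for B cells, 15.2% for platelets and 2.04% for mast cells and basophils (1.01% without pool 1). The median members of the alveolar fibroblast, macrophage, B cell and platelet lists were lower, at 0.592%, 1.84%, 0.612% and 2.56%. Markers of heart muscle and fat were present in the lungs (Myl7 at 432, 291 and 263 TPM, Cfd at 232, 80.7 and 256 TPM) and low in the pools, where Myl7 did not exceed 0.531 TPM and Cfd was listed at 0.

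Scgb1a1, the secretoglobin of club cells and the gene with the highest level in lung, stood at 166349, 143533 and 154906 TPM there and still at 13077, 2818 and 3894 TPM in the AT2 pools. That was 4.26% of the lung mean and made it one of the 10 genes with the highest mean level in AT2 cells. The difference was -4.88 ± 0.49 with an adjusted p of 3.20e-05, and -5.54 without pool 1. Summed over 15 club cell markers the level was 7.65% of that in lung, and 5.64% without pool 1. 14 of the 15 were lower, 13 at least 4-fold. All 12 ciliated cell markers were lower, and their sum was 20.5% of that in lung with a median member at 11%. Foxj1, the regulator of motile cilia, stood at 9.1, 4.86 and 4.13 TPM against 69.9, 61.1 and 74.5 TPM.

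AT1 markers were uneven. Of 15 genes, 12 were lower, 1 was higher and 2 did not pass the test, with a median difference of -2.51 and a median level of 17.1% of that in lung. Hopx, a factor of AT1 cells, stood at 95.9, 127 and 80.6 TPM in AT2 cells and at 768, 982 and 795 TPM in lung (-3.07 ± 0.17, adjusted p = 6.84e-07). Igfbp2 (-3.98), Spock2 (-3.97) and Pdpn (-2.88), which encodes podoplanin of the AT1 membrane, were lower too. In contrast Ager, the receptor RAGE that is used as an AT1 marker, was at 2605, 2742 and 2462 TPM in AT2 cells and at 2954, 2838 and 2514 TPM in lung, with overlapping groups (-0.09 ± 0.09, adjusted p = 0.41). Gprc5a also overlapped, at 513 ± 59.9 against 501 ± 29.8 TPM, and Aqp5, a water channel, was higher in AT2 cells at 557, 621 and 592 TPM against 318, 345 and 329 TPM. Ager gave 2603 of the 4356 TPM that the AT1 list summed to on average in the pools, and the summed list was at 64.8% of lung.

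Single members stood apart in lists that were otherwise low. Among markers with at least 1 TPM in lung, 15 were at 40% of their lung level or more, and without that floor 22 were. Apart from Ager, Aqp5, Gprc5a and Col4a4 of the AT1 list they were spread over other lists. Cbr2, a carbonyl reductase of club cells, stood at 5925, 6622 and 5192 TPM in AT2 cells and at 5592, 4816 and 5140 TPM in lung (0.19, adjusted p = 0.179). Ces1d, a carboxylesterase listed for alveolar fibroblasts, averaged 598 TPM against 647 TPM, whereas Inmt of the same list averaged 7.89 against 1567 TPM. Lcp1, an actin bundling protein listed for leukocytes, averaged 178 TPM against 235 TPM, while the other 9 members of its list were all under 4% of lung. Cd79b, a part of the B cell receptor, was at 33, 31.8 and 30.9 TPM in the pools when Cd79a, its partner, was at 0.572, 0 and 0.922 TPM. Ly6c2 (72.4 against 68.4 TPM), Esam (131 against 291 TPM) and Serpinf1 (21.3 against 47 TPM) were also far above the other members of their lists. Basal cell markers, which averaged 13.7 TPM as a sum in both kinds, were at 100% of lung, and at 57.2% without pool 3, and neuroendocrine markers, at 19.6 TPM in the pools and 24.3 TPM in lung, were at 80.6%. Schwann cell markers summed to 11.3% of lung. Scn7a, the member that held most of that sum, averaged 0.697 TPM in AT2 cells and 86.5 TPM in lung (-5.83, adjusted p = 7.06e-07). Markers under 1 TPM in lung that were above their lung level in AT2 cells were Krt5 (523% of lung), Krt17 (360%), Chga (236%), Chgb (1413%), Scg5 (206%), Sox10 (118%) and Krt14 (1620%), of which Chgb, Scg5 and Krt14 passed the test. The call for Scg5 was lost without pool 1, pool 3 or lung 1 (limma adjusted p of 0.0568 to 0.0838). Krt14, a keratin of basal cells, was low in both kinds but higher in AT2 cells, at 3.25, 3.08 and 10.4 TPM against 0.181, 0.402 and 0.447 TPM. The part that other cells play in these levels was not tested.

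**Figure D4:**
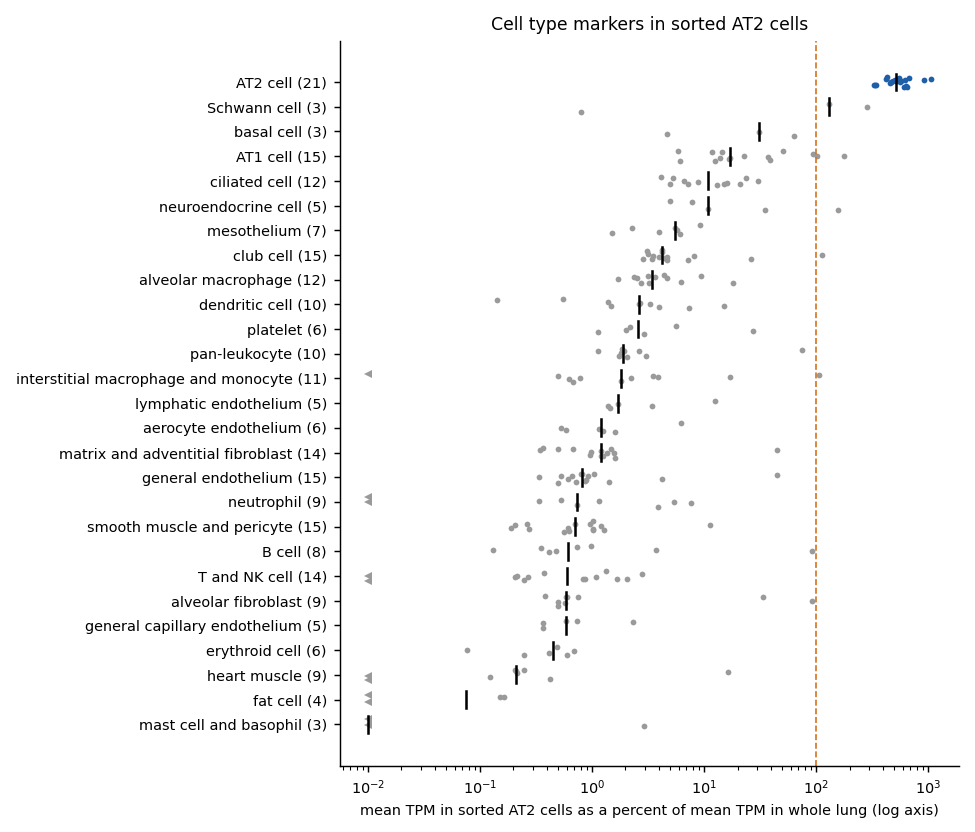
Mean TPM in sorted AT2 cells as a percent of the mean in whole lung (log axis) for each marker with at least 1 TPM in lung, by cell type list, with the number of markers in brackets; bars mark list medians, the dashed line 100%, and arrowheads at the left edge markers under 0.01%. AT2 markers lie above 100%, most other lists lie under 10%, and single members such as Cbr2, Lcp1, Ces1d and Cd79b stand near 100%.

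The pools differed in the level of these markers. Of the 26 lists of other cell types, 20 had their highest summed level in pool 1, 2 in pool 2 and 4 in pool 3. Club cell markers summed to 20005, 9756 and 9559 TPM in pools 1 to 3, lymphatic markers to 11, 1.79 and 1.62 TPM, and general endothelial markers to 218, 163 and 153 TPM. AT2 markers summed to 238242, 224502 and 225073 TPM. Mfap4 and Inmt were likewise highest in pool 1. Mfap4, a microfibril protein, stood at 11.6, 0.971 and 0.578 TPM in the pools and at 1274, 1259 and 1251 TPM in lung, and Inmt at 20.9, 1.86 and 0.891 TPM against 1472, 1488 and 1742 TPM. Without pool 1 the differences of Mfap4, Inmt, Cldn5 and S100a8 went from -8.54, -8.32, -6.88 and -7.39 to -9.48, -9.39, -7.54 and -8.36, while without pool 3 that of Inmt was -7.63 and without pool 2 that of S100a8 was -6.65.

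Immediate early genes, which respond within minutes to serum, stress or tissue dissociation, were among the genes with the largest differences. Of 20 genes of that response, 15 were higher in AT2 cells, 1 was lower and 12 were higher at least 4-fold, with a median of 2.31. Fosb, a subunit of the AP-1 factor, stood at 534, 1136 and 958 TPM in the pools and at 0.806, 3.38 and 2.11 TPM in the lungs (8.17 ± 0.36, adjusted p = 2.25e-07). Fos stood at 805, 1083 and 1044 TPM against 14.1, 30.1 and 19.1 TPM (5.52 ± 0.24), and Atf3, a stress-induced factor, at 340, 876 and 767 TPM against 10.8, 18.7 and 11.1 TPM (5.44 ± 0.35). Egr1 (3.95), Junb (3.09), Jun (3.06) and Nr4a1 (2.71) were also past 4-fold. In each of these 7 genes every pool lay above every lung. The summed level of the list was 5877, 9121 and 9548 TPM in pools 1 to 3 and 1328, 1790 and 1196 TPM in the lungs. Pool 1 was the lowest pool for Fos, Fosb, Atf3, Jun and Junb and the highest for Egr1.

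**Figure D5:**
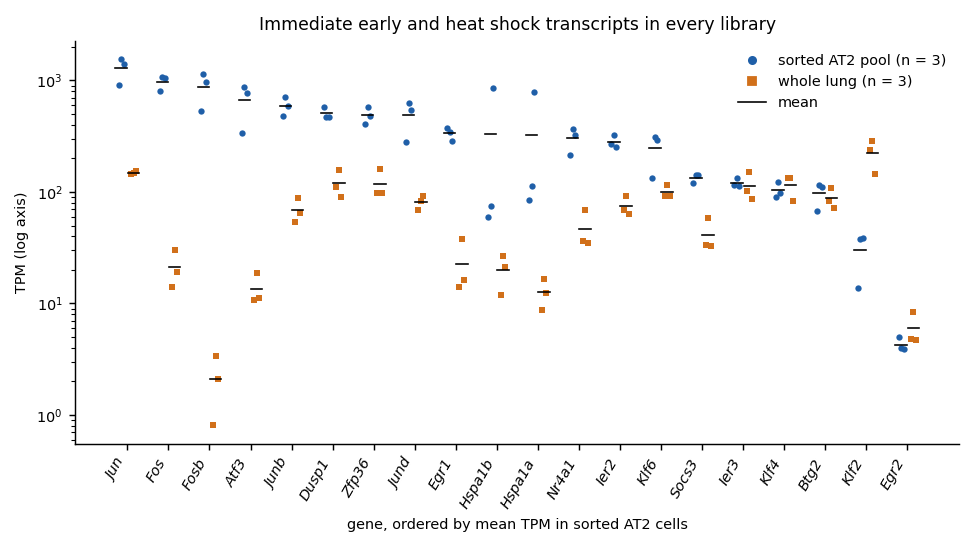
TPM (log axis) of 20 immediate early and heat shock genes in each sorted AT2 pool (circles, n = 3) and each whole lung (squares, n = 3), with bars at the means. Fosb differs most, at a mean of 876 against 2.1 TPM, Klf2 is lower in the pools, and Hspa1a and Hspa1b are far higher in pool 3 than in pools 1 and 2.

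Not all members of the list differed in this way. The heat shock genes Hspa1a and Hspa1b were highest in pool 3, with Hspa1a at 84.6, 112 and 781 TPM against 8.72, 16.6 and 12.3 TPM (3.9 ± 0.74, adjusted p = 0.00142) and Hspa1b at 59.5, 74.8 and 849 TPM against 11.9, 26.9 and 21.2 TPM. Without pool 3 the differences were 2.9 for Hspa1a and 1.76 for Hspa1b, without pool 1 they were 4.5 and 3.67, and Hspa1b no longer passed without lung 1 (adjusted p = 0.0643). These near-identical copies can share reads. Ier3, Btg2, Klf4 and Egr2 did not pass the test, with differences between -0.37 and 0.15. Klf2, a factor that endothelium expresses strongly, was lower at 13.7, 38 and 38.6 TPM against 240, 285 and 145 TPM. Between the pools Lamp3 ranged from 2612 to 2874 TPM and Atf3 from 340 to 876 TPM. The pools were sorted and the lungs were whole, so cell type and handling cannot be told apart for these genes.

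TGACGT, the core of the cAMP response element through which CREB and ATF factors act, was searched in the same RefSeq windows because Fos and Atf3 stood out; this motif was chosen after the values were seen. It was in 4 of the 18 immediate early genes with a window (22.2%), in 7.64% of the first windows of all genes, in 11.2% of those of genes higher at least 4-fold and in 5.84% of those of genes lower at least 4-fold. Fos (chr12:85473640-85473939, plus strand) and Atf3 (chr1:191183284-191183583, minus strand) held it once each and Fosb held none, and the windows of Fos and Atf3 are shown with the match in capitals (its reverse complement in Atf3). The Atf3 window lies inside the gene, which spans chr1:191170296-191218039 in GENCODE M21. A match is no evidence that the site was used here.
Fos: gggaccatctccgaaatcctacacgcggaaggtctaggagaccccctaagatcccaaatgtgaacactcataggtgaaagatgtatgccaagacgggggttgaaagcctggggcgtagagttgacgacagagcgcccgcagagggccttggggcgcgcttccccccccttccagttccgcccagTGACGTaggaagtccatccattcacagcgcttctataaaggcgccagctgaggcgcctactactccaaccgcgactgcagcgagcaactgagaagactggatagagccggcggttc
Atf3: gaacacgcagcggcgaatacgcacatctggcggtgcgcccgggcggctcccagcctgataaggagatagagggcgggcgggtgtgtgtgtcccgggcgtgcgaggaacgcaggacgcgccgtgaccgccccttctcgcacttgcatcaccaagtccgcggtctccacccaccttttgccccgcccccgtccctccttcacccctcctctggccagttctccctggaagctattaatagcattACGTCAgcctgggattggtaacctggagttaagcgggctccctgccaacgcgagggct

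Chaperones and the unfolded protein response showed smaller differences. Of 18 genes, 10 were higher and 1 lower, with a median of 0.45. Dnajb9, a cochaperone of the endoplasmic reticulum, was the member past 4-fold, at 267, 462 and 433 TPM against 61.9, 81.9 and 77 TPM, and Hspa5, the chaperone BiP, averaged 1224 ± 162 against 658 ± 107 TPM. Xbp1 differed by -0.27 (adjusted p = 0.0121), which is close to the median of all genes, and did not pass under median-ratio scaling (-0.15, adjusted p = 0.0669). Of 25 genes of the respiratory chain, 12 were higher and 5 lower, none past 4-fold, with a median of 0.15, and 16 and 2 under median-ratio scaling. Of 15 glycolysis genes, 5 were higher and 6 lower, near the shares over all genes tested (24.4% and 49.5%). Hk2, a hexokinase, stood out at 55.4, 58.8 and 49.7 TPM against 7.34, 9.37 and 8.99 TPM (2.54), Ldha averaged 665 against 373 TPM, and Slc16a3, a lactate exporter, 1.88 against 14 TPM. Of 20 cell cycle genes, 10 were higher and 0 lower with a median of 0.67. Under median-ratio scaling 14 were higher, and under quantile normalization 17 were, with a median of 1.19. Cdc20 led the list (1.81), and its exons overlap those of Elovl1 on the other strand where the ends of the genes meet. Mki67, a marker of cycling cells, did not pass the limma test (0.55, adjusted p = 0.139). Of 81 tested ribosomal protein genes, 47 were higher and 13 lower with a median of 0.32 (56 and 7 with a median of 0.43 under median-ratio scaling, 37 and 21 with a median of 0.14 under quantile normalization).

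Basement membrane genes were mostly lower in AT2 cells. Of 16 tested, 12 were lower, 5 of them at least 4-fold, and 2 were higher, with a median of -1.28. Of all genes tested, 49.5% were lower, 15.4% at least 4-fold, and 24.4% were higher. The chains known from mesenchyme and endothelium were the lowest, with Nid1 at 0.873, 0.239 and 0.256 TPM against 65.2, 85.2 and 87.1 TPM (-5.8), Lama4 at -4.97 and Lamb1 at -4.71. Lamb3, a laminin chain of epithelia, was the clearest exception at 167, 163 and 149 TPM against 64.3, 58.8 and 57.7 TPM. Col4a1 and Col4a2, the widely expressed collagen IV chains, averaged 174 and 150 TPM in AT2 cells against 417 and 334 TPM in lung.

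A larger difference than that of Sftpc was found for 220 genes, and a larger one than that of Hc for 28, of which 18 averaged 20 TPM or more in AT2 cells. Beside Fosb, Fos, Atf3, Egr1, Areg and Hspa1a, the 12 named genes with the largest differences included Tnfsf9, a ligand of the TNF family, at 78, 95.5 and 111 TPM against 6.52, 8.29 and 3.76 TPM (3.78), and Prcd at 50.1, 68.9 and 79.7 TPM against 5.16, 3.99 and 4.22 TPM (3.6). Csn3, a milk casein, was at 31.4, 25.4 and 25.1 TPM in AT2 cells and at 0.132, 0 and 0 TPM in lung (4.76). Hist1h2ao and Pet117 were listed at 0 in all 3 lungs and at 96.1 to 114 and 14.8 to 34.3 TPM in the pools. The ratio of the AT2 mean to the lung mean was 623 for Csn3, where that of the AT2 markers reached at most 10.7. Whole lung holds AT2 cells too, and the cause of the absent or nearly absent lung levels of Csn3, Hist1h2ao and Pet117 was not tested. Tgoln2, of the trans-Golgi network, averaged 505 against 31.8 TPM (3.96). Hist1h2ao and Tgoln2 have near-identical copies in the genome that can share reads, so the levels of these copies are uncertain.

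At the other end stood genes of vessels, fibroblasts, heart muscle and blood. The 12 named genes with the most negative differences (haemoglobins set aside) were Mfap4 (-8.54), Inmt (-8.32), Mgp (-8.3), Ramp2 (-8.04), Calcrl (-7.93), Myl7 (-7.85), Actc1 (-7.58), Cfd, S100a8 (-7.39), Thbd (-7.34), Gpihbp1 (-7.29) and Gpx3 (-7.29). Ramp2 and Calcrl, which together form the adrenomedullin receptor of endothelium, averaged 2.97 ± 2.81 and 1.96 ± 1.67 TPM in AT2 cells and 875 ± 50.8 and 658 ± 69.4 TPM in lung (SD, n = 3 each). Mgp, an inhibitor of calcification, stood at 22.2, 5.03 and 12.2 TPM against 2934, 5415 and 3627 TPM.

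A further set of libraries gave the same contrast. In let-7afd knockout mice, 3 AT2 pools were compared with 3 lungs at the same time, and no library was shared with the controls. Of 13815 genes tested, 367 (2.66%) were higher and 1873 (13.6%) lower at least 4-fold. Of the genes higher at least 4-fold, 255 were called in both, which is 81% of the 315 in controls and 69.5% of the 367 in knockouts. Of those lower, 1722 were called in both, 79.4% of those in controls and 91.9% of those in knockouts, and 0 were called in opposite directions. Sftpc stood at 85303, 128668 and 110195 TPM in these pools and 10154, 10404 and 13236 TPM in these lungs, Fosb at 679, 617 and 534 TPM and 2.66, 2.19 and 1.43 TPM, and Scgb1a1 at 2141, 4821 and 4800 TPM and 68360, 83818 and 75209 TPM. For each of these 3 genes the groups did not overlap, in the same order as in the controls.

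The Y-linked gene Ddx3y was at 20.8 to 23.6 TPM in the pools and 35 to 38.7 TPM in the lungs, and Xist, made from the inactive X chromosome, did not exceed 0.324 TPM in any of the 6 libraries. Of 169 genes named here that have 1 position in GENCODE M21, 41 have exons that overlap a gene on the other strand, among them Junb, Nid1, Mfap4 and Prcd, and their levels may hold reads of that partner.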

How the data were processed

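RNA was measured in 3 pools of flow-sorted AT2 cells and 3 whole lungs of control mice, as nonstranded poly(A) libraries per the labels' protocols. The authors deposited TPM, 1 table for each kind of sample, and per the submitters' processing notes the genome was GRCm38. The sources used here name no aligner, quantifier or gene models. Tables were joined on their 24972 symbols, which stood in the same order, and where a symbol was listed more than once the row with the highest mean was used, which dropped 2 rows. Genes with at least 1 TPM in 3 of the 6 libraries were put on the log2(TPM + 1) scale and fitted without pairing by limma (version 3.58.1, R 4.3.3). Variances were moderated with a trend. P-values are two-sided and were adjusted over all genes tested by the Benjamini-Hochberg method. Fold changes on this scale understate the change of low genes. The fit was tested on simulated data. Depth is unknown. Levels were set across separately deposited tables.

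The comparison, gene lists and markers were chosen with earlier results of these data known. Named genes were the 12 with the largest and the 12 with the smallest difference among called genes with groups that did not overlap and at least 20 TPM, leaving out predicted genes, immunoglobulin segments and haemoglobins, together with the highest and most extreme members of each list and the 10 genes with the highest TPM. Btg2, Camp, Chka, Chpt1, Cldn4, Csf2, Csf2ra, Csf2rb, Ctsb, Ctsc, D330041H03Rik, Egfr, Egr2, Erbb3, Fgf7, Fzd5, Hps4, Hspa1b, Ier3, Igf1, Klf4, Krt7, Lama4, Lamb1, Lpin1, Lss, Mki67, Mlxipl, Nr4a1, Ocln, Pnpla3, Srebf1 and Srebf2 fall outside that rule; their choice was made with their values in view.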

Additional observations from a re-analysis of the deposited data

Results flagged for a closer look

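The 4 control lungs taken 6 months after tamoxifen, used as another reference, held 4 summed marker levels in which 1 lung stood far from the other 3. The ciliated cell sum was 2284 TPM in the lowest lung and 2428 to 2442 TPM in the others. The interstitial macrophage and monocyte sum was 804 TPM in the highest lung and 641 to 661 TPM in the others. The dendritic cell sum was 110 TPM in the highest lung and 89.7 to 92.9 TPM in the others. The B cell sum was 1059 TPM in the highest lung and 427 to 455 TPM in the others. Chance alone flags about 1 in 20 groups of this size.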

How the results depend on the processing

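Quantile normalization moved the counts most, to 6871 genes higher and 4286 lower, and to 660 and 1297 at least 4-fold. Leaving out 1 library at a time gave 3080 to 3573 genes higher, 6698 to 7013 lower, 307 to 322 higher at least 4-fold and 2148 to 2206 lower at least 4-fold, and 17 to 19 of 26 cell type lists under 10% of lung. Of 541 tested members of the cell type and process lists, ribosomal proteins not included, 182 were higher and 301 lower, and 57 and 231 when a 4-fold difference was also required (24.4% and 49.5%, and 2.23% and 15.4%, of all genes). With the replicate number as a block 3385 genes were higher and 6852 lower. Deviations of same-numbered libraries correlated at 0.0811, -0.00108 and -0.0884, and those of differently numbered libraries at -0.134 to 0.157. With so few samples these values cannot decide whether the numbers pair the samples.

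Differences near 0 changed sign. Under median-ratio scaling Ager was 0.03, Cldn4 0.06 and Scnn1a 0.09. Under quantile normalization Cbr2 was -0.07, Cldn4 1.03, Egfr 0.27, Egr2 0.69, Gprc5a -0.1 and Lpin1 0.22. After rescaling without the top genes Cldn4 was 0.0 and Scnn1a 0.03. With library weights Cd79b was -0.09, Retnla 0.14 and Scnn1a 0.03. Leaving out 1 library at a time moved Cd79b from -0.23 to 0.43, Ces1d from -0.22 to 0.02, Cldn4 from -0.29 to 0.2, Gprc5a from -0.06 to 0.11, Ier3 from -0.06 to 0.34, Ly6c2 from -0.01 to 0.19, Retnla from -1.0 to 0.54 and Scnn1a from -0.15 to 0.16. Against the 6 month control lungs, in which Ddx3y was listed at 0 and Xist reached 22.5 to 41.8 TPM, so that the sex of the mice and the time after tamoxifen differ as well, Cbr2 was -0.19, Cd79b -1.48, Ctsb 0.15, Ddx3y 4.54, Egr2 0.63, Gprc5a -0.12, Ier3 -0.42, Lcp1 0.2 and Retnla 2.19. The cause of these changes was not tested.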
